A study of Homo sapiens with 9 samples.

Results

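The mRNAs of 9 enzymes and enzyme subunits of the tricarboxylic acid (TCA) cycle were examined for cross-linking to malate dehydrogenase 2 (MDH2), itself an enzyme of that cycle. They were taken by name: CS, IDH3A, IDH3B, IDH3G, OGDH, DLST, SUCLG1, SUCLG2 and FH, out of 29166 gene identifiers with at least 1 exon window listed. Their exons held 1377 of the 2564772 exon windows listed, and their introns held another 8849 windows. The question was whether an enzyme of the cycle is found on the mRNAs of its neighbours in the pathway.

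The libraries came from Huh7, a human hepatocellular carcinoma cell line, and were made by eCLIP, in which UV light joins proteins to the RNA they touch before immunoprecipitation (IP). All 9 libraries derived from UV-irradiated cells whose lysate was treated with RNase I. In 3 MDH2 IP libraries an antibody to MDH2 was used, in 3 IgG IP libraries a non-specific isotype antibody took its place, and 3 size-matched input (SMI) libraries were prepared from lysate without any IP. IP libraries were amplified for 14 PCR cycles and SMI libraries for 9. The labels number the replicates but do not say whether they were separate cultures, so the p-values measure only the spread between these libraries. No library from cells lacking MDH2 was analysed here.

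The TCA cycle runs in the mitochondrial matrix and oxidises acetyl-CoA. Citrate synthase (CS) condenses acetyl-CoA with oxaloacetate, isocitrate dehydrogenase 3 (IDH3A, IDH3B and IDH3G) and the oxoglutarate dehydrogenase complex (OGDH and DLST) carry out the oxidative decarboxylations, succinyl-CoA ligase (SUCLG1 with SUCLG2) makes GTP, and fumarate hydratase (FH) makes the malate that MDH2 oxidises. All of these mRNAs are transcribed in the nucleus and translated in the cytoplasm.

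Counts of cross-link sites were given in windows of 50 nt placed every 20 nt, so that up to 3 windows count the same site, and summed counts are larger than the number of sites. The exon windows held 3249974 to 5078220 counts per MDH2 IP library, 3651665 to 4657949 per SMI library and 506441 to 1134432 per IgG IP library. The TCA genes received 2296 to 3504, 2065 to 2565 and 242 to 714 of them, so that values in IgG IP are the least precise. Levels are given as CPM, exon counts scaled to a common library size by TMM. Of 10 hepatocyte markers, all passed the count filter, with AFP at 1713 CPM, ALB at 1084 CPM and APOH at 21.7 CPM in SMI (n = 3). Of 9 markers of blood, endothelial, stromal and bile duct cells, 4 passed it. They were PECAM1 (8.98 CPM in SMI), CD68 (8.17) and both bile duct markers, KRT19 (41.0) and EPCAM (18.1). The stromal marker DCN had 0 counts.

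The positions of highest signal were read first, because they show where on these mRNAs the counts lie. Windows could be placed on the genome (GRCh38) for CS, IDH3B, IDH3G and DLST, for which every listed window fell into its exon or intron when windows were laid over the merged exons of GENCODE v44. The placement assumes that the first window starts at the first base of its exon. For the other 5 genes only exon numbers are given, counted from the 5′ end over merged exons. A stretch of 30 bases around the middle of the window is shown, on the strand of the gene, for the exon window with the highest mean CPM in MDH2 IP in each placed gene (among tested windows where a gene had any; other windows of CS and IDH3B tied with it in summed counts) and for the leading window of IDH3B exon 2, the exon that passed the test below. The IDH3B exon 2 window is cut to 41 bases by the end of the exon, so its stretch lies off centre. Capitals mark the 10 bases that the window shares with both of its overlapping neighbours.
CS exon 13, 3′ UTR, chr12:56272389-56272418, minus strand: cacctcctccCAGACTTTCTacacctgttg
IDH3B exon 3, coding, chr20:2663710-2663739, minus strand: agggctccttTCCCGTGACCatgcttccgg
IDH3B exon 2, coding, chr20:2663975-2664004, minus strand: cgctggtctcCGCCGGGAACcctggggcat
IDH3G exon 1, 5′ UTR and 11 coding bases, chrX:153794316-153794345, minus strand: gaggctctcaCTTTCCGTCAtggcgctgaa
DLST exon 15, 3′ UTR, chr14:74903366-74903395, plus strand: gacgtggactGGGGTAGGAAaccaccctga
These windows held few counts. They were picked for their high MDH2 IP values, which favours MDH2 IP in the comparisons with the controls, so the counts are a description. In the CS window the MDH2 IP libraries held 14, 11 and 12 counts and the input libraries 15, 14 and 11, which overlap. The IDH3B exon 3 window gave 13, 16 and 20 counts after MDH2 IP against 10, 13 and 9 in the input. That of exon 2 gave 8, 11 and 12 counts after MDH2 IP, above the 1, 3 and 1 of the input, but the 3, 0 and 0 counts after IgG IP reached 2.56 CPM in 1 library, within the 1.53 to 3.56 CPM of MDH2 IP. In IDH3G the window around the start of the coding sequence gave 8, 5 and 6 counts after MDH2 IP and 1, 4 and 1 in the input. The DLST window gave 7, 7 and 4 counts after MDH2 IP and 3, 1 and 0 in the input.

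Over whole genes, the TCA mRNAs as a group were recovered by the MDH2 IP about as they were present in the input. IDH3B was higher in MDH2 IP than in SMI, and no other member passed the test over SMI or over IgG IP in the reported fit. That fit did not pair libraries of the same replicate number. With the replicate number entered in the fit as a block, OGDH was also higher and IDH3A was lower over SMI. Of all 13923 genes tested, 2940 were higher and 2875 lower with the block. The summed level of the 9 genes was 642 ± 57.6 CPM in MDH2 IP, against 596 ± 30.2 CPM in SMI and 480 ± 120 CPM for IgG IP (SD, n = 3 each). All 9 passed the filter of at least 10 counts in 3 of the 6 libraries in each comparison. With edgeR's quasi-likelihood test and Benjamini-Hochberg adjustment over all genes, 1 of 9 was higher in MDH2 IP than in SMI at an adjusted p of at most 0.05, where 8.6% of all 13923 genes tested were higher, and 0 of 9 were lower, where 10.7% were. At an unadjusted p under 0.05 the count was 3 of 9, where 34.1% of all genes were, and 5 of 9 had a log2 fold change above 0. The median log2 fold change was 0.02 over the members and 0.00 over all genes tested.

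**Figure D1:**
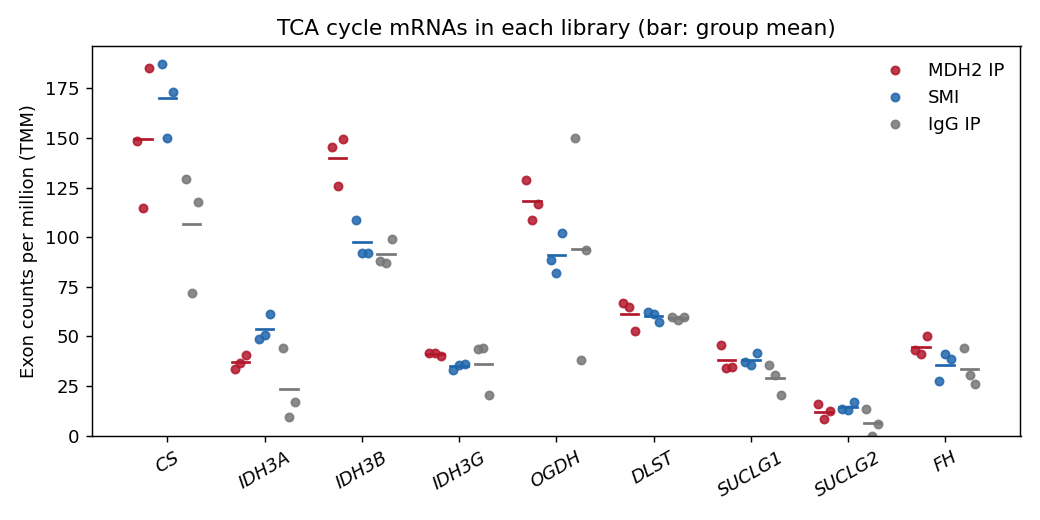
Exon CPM (TMM scaling, linear axis) of the 9 TCA cycle genes in each library, with MDH2 IP in red, SMI in blue and IgG IP in grey, and a bar at each group mean. The 3 MDH2 IP points of IDH3B lie between 126 and 149, all above SMI, and those of IDH3A lie between 33.6 and 40.7, all below SMI.

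CS, the enzyme of the entry step, had the highest level of the members in SMI. Its level was 149, 115 and 185 CPM after MDH2 IP, 187, 150 and 173 CPM in the input and 129, 71.9 and 118 CPM after IgG IP. MDH2 IP overlapped with both controls. The log2 fold change of MDH2 IP was -0.19 ± 0.19 (SE) over SMI (adjusted p = 0.525) and 0.37 ± 0.26 over IgG IP (adjusted p = 0.531).

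Of the 3 subunits of isocitrate dehydrogenase 3, only IDH3B passed the test over SMI in the fit without a replicate block. IDH3B, a subunit that supports the activity of the enzyme, had 145, 126 and 149 CPM after MDH2 IP, 109, 92.2 and 92.0 CPM in the input and 87.8, 87.2 and 99.1 CPM after IgG IP. The lowest MDH2 IP library exceeded the highest library of both controls. All MDH2 IP libraries lay above all SMI libraries in 18.8% of the genes tested, and above all IgG IP libraries in 16.6%. Its log2 fold change was 0.52 ± 0.15 (SE) over SMI (adjusted p = 0.0403) and 0.51 ± 0.20 over IgG IP (adjusted p = 0.250). The call over SMI was lost without MDH2 IP replicate 1 (adjusted p = 0.121) or 3 (0.0779), without SMI replicate 1 (0.0847), 2 (0.112) or 3 (0.106), with no filter on low counts (0.0537), and when only non-overlapping windows were summed (0.0626). The log2 fold change was 0.46 to 0.59 in these fits.

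IDH3A, the catalytic subunit, had 33.6, 36.7 and 40.7 CPM in MDH2 IP and 48.7, 50.8 and 61.3 CPM in SMI. Every MDH2 IP library lay below every SMI library, as was so for 2785 of all 13923 genes tested. The log2 fold change was -0.54 ± 0.18 (SE) and missed the threshold (adjusted p = 0.0582). With the replicate block in edgeR it was -0.54 and passed (adjusted p = 0.00344). IgG IP spread from 9.18 to 44.3 CPM. IDH3G, the regulatory subunit, had 41.4, 41.6 and 40.1 CPM in MDH2 IP and 33.2, 35.7 and 36.2 CPM in SMI, with a log2 fold change of 0.22 ± 0.17 (adjusted p = 0.386). Its libraries did not overlap, as was so with MDH2 IP above SMI for 18.8% of all genes tested.

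The balance between these subunits was also set within each library, where scaling cancels. This ratio was chosen after the values had been seen, so its test is a description. The log2 ratio of IDH3B to IDH3A exon counts was 2.11, 1.78 and 1.88 in MDH2 IP and 1.16, 0.86 and 0.58 in SMI. The means differed by 1.05 on the log2 scale, with no overlap and an exact two-sided permutation p of 0.1, the smallest that 3 libraries against 3 can give. In IgG IP the ratio ran from 0.99 to 3.25 and spanned the MDH2 IP values.

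In the oxoglutarate dehydrogenase complex, OGDH encodes the substrate-binding E1 subunit and DLST the succinyltransferase E2 subunit. OGDH had 129, 109 and 117 CPM after MDH2 IP, 88.7, 82.0 and 102 CPM in the input and 150, 38.2 and 93.5 CPM after IgG IP. MDH2 IP lay above SMI in every library, as in 18.8% of all genes tested, but within the range of IgG IP. Over SMI the log2 fold change was 0.37 ± 0.15 (SE; adjusted p = 0.114), and that over IgG IP was 0.19 ± 0.35 (adjusted p = 0.842). With the replicate block in edgeR the change over SMI was 0.37 and passed (adjusted p = 0.00734). DLST was level in all groups, with 61.4 ± 7.73 CPM after MDH2 IP, 60.4 ± 2.63 in the input and 59.2 ± 0.932 after IgG IP (SD, n = 3 each), and a log2 fold change over SMI of 0.02 ± 0.16.

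The later enzymes gave no call either. SUCLG1, the subunit common to both forms of succinyl-CoA ligase, had 38.0 ± 6.41 CPM in MDH2 IP and 38.0 ± 3.16 CPM in SMI (SD, n = 3 each). SUCLG2, the GTP-specific subunit, was the lowest of the members with 12.0 ± 3.86 CPM in MDH2 IP and 14.4 ± 2.41 CPM in SMI, and 1 IgG IP library had 0 exon counts for it. FH had 43.3, 41.1 and 50.2 CPM in MDH2 IP and 27.3, 41.4 and 38.6 CPM in SMI, which overlap, with a log2 fold change of 0.32 ± 0.21 (SE; adjusted p = 0.318).

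**Figure D2:**
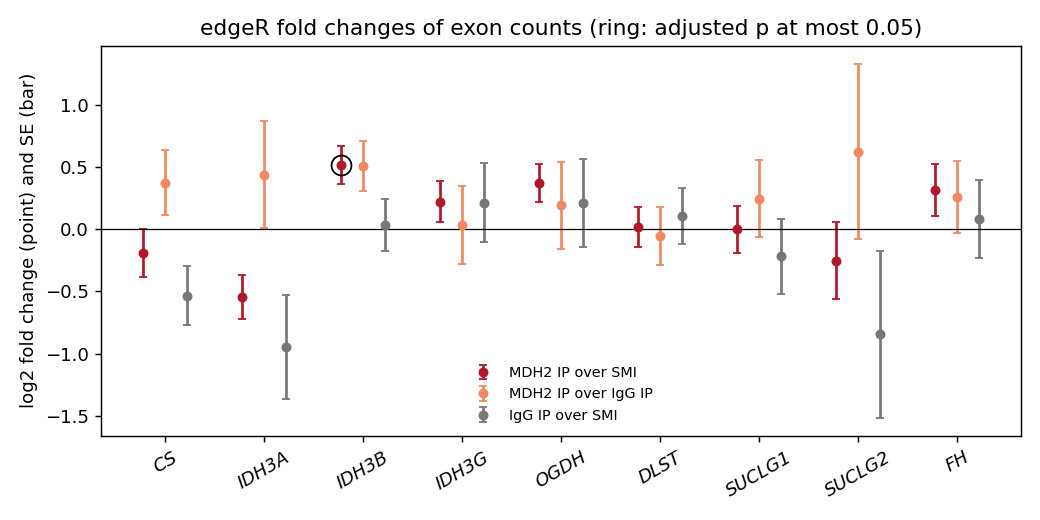
Log2 fold changes from edgeR (points) with their standard errors (bars) for the 9 TCA cycle genes in 3 comparisons, each over exon counts of 3 libraries against 3. Only IDH3B in MDH2 IP over SMI, at 0.52, is ringed as passing an adjusted p of 0.05.

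Against IgG IP, 0 of 9 members were higher, where 0.302% of 12573 genes tested were higher, and 0 were lower, where 1.8% were. At an unadjusted p under 0.05 edgeR gave 1 member, IDH3B, and DESeq2 also called 0 of 9. The unadjusted share over all genes was 15.4%. The log2 fold change was above 0 for 8 of 9 members. With exon and intron windows summed together CS (0.72, adjusted p = 0.0492) and IDH3B (1.02, adjusted p = 0.00739) passed, where 719 of 15492 genes tested were higher. The fold changes over exon counts ran from -0.06 for DLST to 0.62 for SUCLG2 on the log2 scale, with a median of 0.26 against 0.04 over all genes. Between the controls, 0 of 9 members were higher in IgG IP than in SMI, where 9.58% of 12788 genes were, and 0 were lower, where 5.98% were. Here the unadjusted count was 2, IDH3A and CS, where 30.0% of all genes were, and DESeq2 called 0. IDH3A had the lowest log2 fold change of IgG IP over SMI, -0.94 ± 0.42 (SE; adjusted p = 0.153), and without IgG IP replicate 1 it was -1.91 and passed (adjusted p = 0.0110). The MDH2 IP and IgG IP comparisons with SMI share the same 3 SMI libraries.

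Levels between genes were compared per kilobase of merged exon sequence, for the 4 placed genes only, since the exon lengths used here do not match the counted windows of the other 5. IDH3B came first in all 3 groups, with 54.6 ± 4.93 CPM per kb after MDH2 IP, 38.0 ± 3.72 in the input and 35.6 ± 2.62 after IgG IP (SD, n = 3 each). CS followed with 23.4 ± 5.52 CPM per kb in MDH2 IP and 26.6 ± 2.91 in SMI. IDH3G and DLST were within their spread of each other, at 15.2 ± 0.316 and 13.5 ± 1.70 CPM per kb in MDH2 IP and 13.0 ± 0.604 and 13.3 ± 0.578 in SMI.

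The exonic share of the members' counts was compared next, as a description. With 3 libraries against 3 the exact test cannot give a p under 0.1. Intron windows hold counts from unspliced or other intronic RNA, whereas exon windows hold counts from spliced and unspliced RNA alike. The exonic share therefore describes where the counts lie and does not by itself separate spliced from unspliced RNA. In 7 of 9 members every MDH2 IP library had a higher exonic share than every SMI library, as in 44.6% of 11825 tested genes with intron counts. OGDH had the largest mean difference of the members, with 55.2, 54.6 and 50.8% after MDH2 IP, 27.0, 30.6 and 30.9% in the input and 46.0, 18.7 and 31.8% after IgG IP. For SUCLG1 the shares were 56.8, 47.4 and 70.3% in MDH2 IP and 32.3, 38.0 and 44.8% in SMI. FH followed with 78.8 ± 4.03% against 61.8 ± 5.47% (SD, n = 3 each).

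SUCLG2, whose counts were mostly intronic, had an exonic share of 10.9 ± 0.499% in MDH2 IP and 5.59 ± 1.07% in SMI (SD, n = 3 each). IDH3B was almost wholly exonic, with 94.6 ± 0.406% and 93.2 ± 1.10%. IDH3A and IDH3G overlapped between MDH2 IP and SMI. For each of the 7 genes the exact two-sided permutation p was 0.1, the smallest that 3 libraries against 3 allow, and 0.129 after Benjamini-Hochberg adjustment over the 9 genes. The same direction was seen over all genes, where exon windows held 53.6, 59.9 and 55.1% of all counts after MDH2 IP, 43.9, 49.8 and 45.7% in the input and 38.5, 35.0 and 31.0% after IgG IP. Of 12258 tested genes with intron counts, 77.4% had a higher exonic share in the summed MDH2 IP libraries than in the summed SMI libraries. By group means the share was higher in MDH2 IP than in SMI for 8 of 9 members, so their direction was that of most genes.

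**Figure D3:**
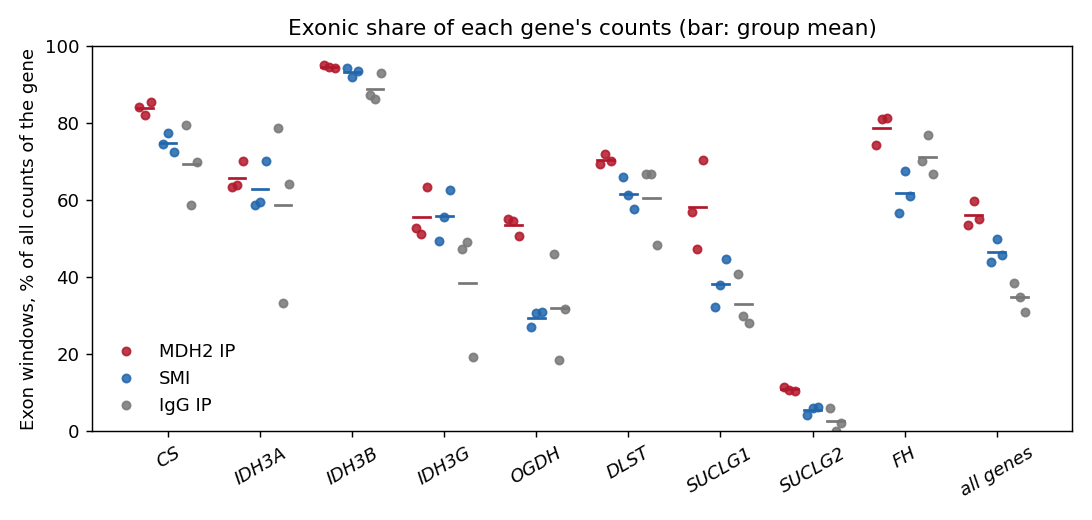
Exon windows as a percent of all counts of each gene, per library, with the same share over all genes at the right, and a bar at each group mean. OGDH lies at 50.8 to 55.2% in MDH2 IP and at 27.0 to 30.9% in SMI, and the all-gene share is also higher in MDH2 IP than in both controls.

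Within the exonic counts, the last exon was taken as the highest-numbered exon with any count. It carried the most MDH2 IP counts in CS (exon 13), DLST (exon 15), IDH3A (exon 16), IDH3G (exon 14), OGDH (exon 26) and SUCLG2 (exon 12). Exon 5 led in IDH3B, exon 12 in SUCLG1 and exon 1 in FH. In CS the last exon held 50.1, 54.1 and 53.4% of exon counts after MDH2 IP and 58.2, 55.4 and 58.6% in the input, with no overlap. In IDH3G it held 28.6, 28.4 and 30.4% in MDH2 IP and 45.1, 35.1 and 32.7% in SMI, also with no overlap. Each of these 2 differences had an exact two-sided permutation p of 0.1, the smallest possible, and 0.45 after adjustment over the 9 genes, and the other 7 members overlapped. All MDH2 IP libraries lay below all SMI libraries on this measure in 28.3% of 10383 genes. Without SMI replicate 1 the IDH3G difference went from -8.52 to -4.77 percentage points, and with non-overlapping windows to -13.7. Over 12210 tested genes with several exons, the share of the last exon was higher in the summed MDH2 IP libraries for 28.1%, with a median difference of -3.70 percentage points.

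Of 122 member exons with counts, 67 were tested over SMI, and 1 was higher, where 2.66% of 58684 exons were, and 0 were lower, where 5.52% were. The exon was IDH3B exon 2 (chr20:2663925-2664005), coding sequence close to the 5′ end. It held 28, 28 and 26 counts after MDH2 IP, 5, 10 and 5 in the input and 7, 0 and 0 after IgG IP. The exon passed the count filter only through its MDH2 IP counts. This was 5.35, 6.90 and 7.72 CPM after MDH2 IP, above the 1.47, 2.36 and 1.21 CPM of the input, but IgG IP replicate 1, at 5.96 CPM, lay within the MDH2 IP range. Its change over SMI was 1.78 ± 0.50 on the log2 scale (SE; adjusted p = 0.0349), and that over IgG IP was 1.17 ± 0.87 (adjusted p = 0.588). The call was lost when MDH2 IP replicate 1 (adjusted p = 0.0653), 2 (0.0841) or 3 (0.0937), or SMI replicate 1 (0.114) or 3 (0.102), was left out.

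Exons next in order did not pass in the reported fit. IDH3G exon 1, which holds the window shown above, gave 36, 25 and 16 counts after MDH2 IP and 2, 14 and 5 in the input (log2 fold change 1.58 ± 0.57 SE, adjusted p = 0.101), and without SMI replicate 2 it passed (2.46, adjusted p = 0.0335). This exon too passed the count filter only through its MDH2 IP counts. At the other end of its mRNA, IDH3A exon 16 gave 95, 59 and 51 counts after MDH2 IP and 85, 94 and 122 in the input, with a log2 fold change of -0.85 ± 0.26 (adjusted p = 0.0508). With the replicate block in edgeR both exons passed, IDH3G exon 1 at an adjusted p of 0.0341 and IDH3A exon 16 at 0.00643. Of all 58684 exons tested, 4023 were higher and 5378 lower with the block. At an unadjusted p under 0.05 there were 6 of 67 exons, where 22.1% of all exons were. Over IgG IP, 52 member exons were tested, 0 were higher, where 0.184% of 42945 exons were, and 0 were lower, where 1.25% were. There edgeR gave 3 exons at an unadjusted p under 0.05, where 13.9% of all exons were, and DESeq2 called 0.

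**Figure D4:**
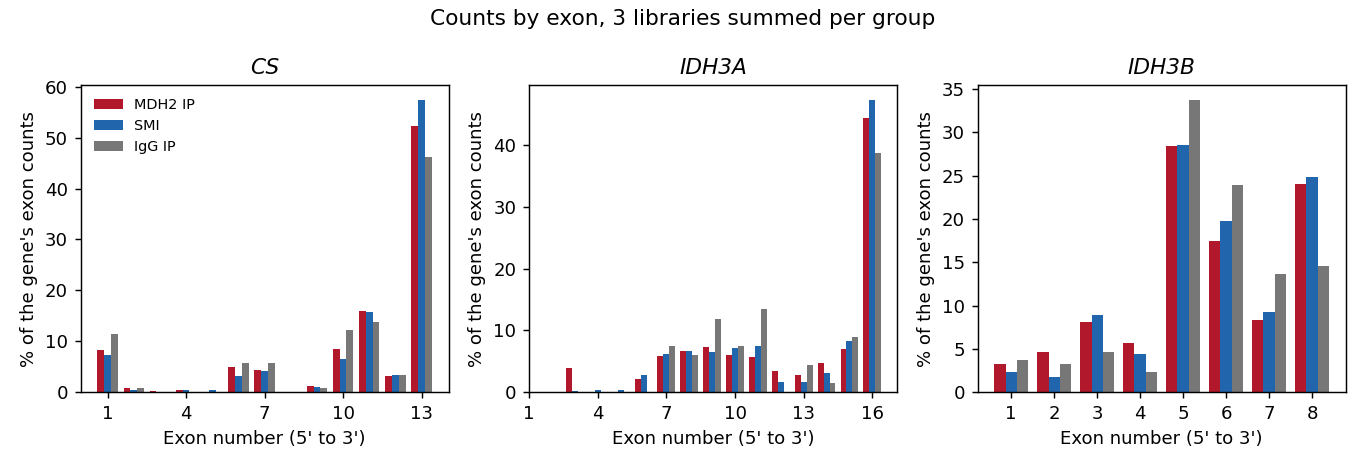
Percent of each gene's exon counts by exon (5′ to 3′, merged exons) for CS, IDH3A and IDH3B, with the 3 libraries of a group summed. The last exon leads in CS and IDH3A, and IDH3B exon 2 holds 4.62% in MDH2 IP and 1.75% in SMI.

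In the placed genes the counts were also divided over the parts of the MANE transcript, the reference mRNA of each gene, with the remaining windows lying in exons of other transcripts. The 3′ UTR of CS held 39.1, 43.1 and 41.0% of exon counts after MDH2 IP and 49.6, 48.0 and 50.6% in the input, which do not overlap. In IDH3B the coding sequence held 61.2 ± 1.98% in MDH2 IP and 67.0 ± 4.04% in SMI (SD, n = 3 each), also with no overlap. Its 5′ UTR, a single window, held 1.49 ± 0.279% and 0.965 ± 0.156%, with no overlap either. The 5′ UTR of IDH3G held 12.0, 8.88 and 8.15% in MDH2 IP against 1.77, 5.30 and 2.00% in SMI. Its 3′ UTR held only 3.16 ± 2.80% in MDH2 IP and 6.86 ± 3.77% in SMI, so most counts of its last exon lay outside the 3′ UTR. In DLST the 3′ UTR share overlapped, at 53.6 ± 5.39% and 53.2 ± 4.46%. Windows of DLST outside the MANE transcript held 8.49 ± 1.95% in MDH2 IP and 15.9 ± 2.96% in SMI, with no overlap. Each part without overlap had an exact two-sided permutation p of 0.1, the smallest possible. No such share over all genes is given here, so these values are a description.

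At the scale of single windows, where a site would show as a local peak, no member exon window was enriched. Windows counted as enriched at a log2 fold change of at least 1 and an adjusted one-sided p of at most 0.05. Of the 1377 listed, 17 had enough counts to be tested over SMI, 10 in CS and 7 in IDH3B, and 0 were enriched, where 4.04% of 51108 windows were. No member window held more than 21 counts in any library. Among these 17 the highest fold was that of a 3′ UTR window in IDH3B exon 8 (chr20:2658695-2658744), which gave 17, 19 and 13 counts after MDH2 IP, 10, 5 and 7 in the input and 0, 2 and 1 after IgG IP. All MDH2 IP libraries lay above the input, with a log2 fold change of 0.97 ± 0.41 (SE; adjusted p = 0.329). With edgeR 2 windows had an unadjusted one-sided p under 0.05, where 20.2% of all windows had, and DESeq2 called 0. Over IgG IP 5 windows were tested and 0 were enriched, where 0.148% of 30427 were, with 2 at an unadjusted p under 0.05 (10.4% of all windows) and 0 called by DESeq2. For IgG IP over SMI 4 windows were tested and 0 were enriched, where 6.14% of 26669 were, with 0 at an unadjusted p under 0.05 (13.6% of all windows) and 0 called by DESeq2. For the other 7 members no window reached this count filter over SMI, so that local enrichment was not tested in them. With a filter of at least 5 counts in 3 libraries, 129 windows of 7 members were tested, and 1 was enriched, the IDH3B exon 2 window shown above (log2 fold change 2.33, adjusted p = 0.0462). The window passed that filter only through its MDH2 IP counts, at 8, 11 and 12 against 1, 3 and 1 in the input. Its call is therefore a description, and the share of all windows enriched at that filter is not given here.

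Other genes of the cycle and of pyruvate entry were set beside the members. Of 15 listed, 14 were tested over SMI. Of these, 2 were higher, where 8.6% of all 13923 genes tested were, and 1 was lower, where 10.7% were. SDHA, the flavoprotein subunit of succinate dehydrogenase, had 126, 122 and 112 CPM in MDH2 IP and 90.4, 66.2 and 77.5 CPM in SMI (log2 fold change 0.62 ± 0.16 SE, adjusted p = 0.0249). Its 115, 68.8 and 59.8 CPM in IgG IP overlapped with MDH2 IP (adjusted p = 0.465). PC, the pyruvate carboxylase that supplies oxaloacetate, had 831, 946 and 740 CPM in MDH2 IP and 626, 563 and 525 CPM in SMI (0.55 ± 0.15, adjusted p = 0.0307), but 986, 802 and 632 CPM in IgG IP, which overlaps with MDH2 IP. SDHC, a membrane anchor of succinate dehydrogenase with processed pseudogenes that may share its reads, was lower in MDH2 IP than in both controls. It had 103, 80.6 and 95.9 CPM after MDH2 IP, 175, 164 and 135 CPM in the input and 172, 176 and 200 CPM after IgG IP, with log2 fold changes of -0.77 ± 0.17 (adjusted p = 0.0119) and -1.08 ± 0.20 (adjusted p = 0.0187). No other gene of the list was called over IgG IP, where 1.8% of 12573 genes tested were lower and 0.302% were higher. The mRNA of MDH2 itself was not called, with 166 CPM in MDH2 IP and 151 CPM in SMI (0.13 ± 0.13, adjusted p = 0.515). Of the 4 cytosolic counterparts ACO1, IDH1, MDH1 and ACLY, none was called by edgeR in the 3 comparisons, with 0 also at an unadjusted p under 0.05.

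The genes whose log2 CPM followed that of CS most closely over the 9 libraries, among 12037 compared, were RNF34 (Pearson r = 0.98), NME1-NME2 (0.98) and PPIA (0.97). The points share library depth and scaling, and the values are a description. NME1-NME2 is a read-through locus that overlaps NME1 and NME2, and PPIA has processed pseudogenes. Among the members, SUCLG2 (0.89) and IDH3A (0.86) were closest to CS, and IDH3G (-0.12) was farthest.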

How the data were processed

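The authors trimmed the eCLIP reads with cutadapt, aligned them to hg38 with STAR, collapsed PCR duplicates by molecular identifiers, took the base next to each alignment start as the cross-link site, and deposited unnormalized counts of sites in 50 nt windows that start every 20 nt. A site in overlapping windows is counted up to 3 times, which makes neighbouring counts dependent, and 0 sample columns were left unused. Counts were summed over exon windows per gene and per exon. Features with at least 10 counts in 3 of 6 libraries were tested with edgeR 4.0.16 (R 4.3.3; TMM, quasi-likelihood, only the groups compared, no block), with Benjamini-Hochberg adjustment over all features. Window p-values were one-sided, each multiplied by how many tested windows overlapped. Percentages were set against each other by exact two-sided permutation (scipy 1.17.1). The tests were tried on simulated data. Exon lengths, coordinates and MANE parts came from GENCODE 44 and sequences from the GRCh38 FASTA.

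The members and lists were chosen with earlier results of these data known. The text names all 9 members, their leading exon, the leading window of the placed genes, every member exon or window called, genes of the pathway list called in MDH2 IP over SMI or IgG IP, the cytosolic counterparts, and the 3 genes closest to CS in log2 CPM (prior count 2). IDH3G exon 1, IDH3A exon 16 and the IDH3B exon 8 window were named after their values were seen, as next in order. Alternatives were DESeq2 1.42.0, other scalings and filters, non-overlapping windows, exon and intron windows together, all 9 libraries in the fit, a replicate block, and leaving out each library. Every pair of replicates varied beyond sampling noise, with a chi-square per degree of freedom of at least 2.29 over gene sums of non-overlapping windows, in which a site counts once.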

Additional observations from a re-analysis of the deposited data

How the results depend on the processing

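Few counts limit the window tests, with 17 of 1377 member windows tested over SMI. The number of members higher in MDH2 IP than in SMI (1) became 2 with total counts as library size (IDH3B and OGDH), which moved the median of all genes to 0.17, 2 with exon and intron windows together (IDH3B and IDH3G), 0 with no filter or with non-overlapping windows, and 0 to 1 when 1 library was left out. The number lower (0) became 1 with exon and intron windows (SUCLG2, -0.92). Over all genes, total counts gave 1960 of 13923 higher. Exon and intron windows gave 2801 of 17057 higher and 3061 lower. With those windows 2 members were higher over IgG IP (CS 0.72, IDH3B 1.02), where 719 of 15492 genes were. In IgG IP against SMI 2 members were lower with them, where 1789 of 15709 genes were. No filter gave 1 there (IDH3A), and leaving out 1 library gave 0 to 1. Member exons higher over SMI (1) became 0 with non-overlapping windows, 2 with total counts and 0 to 2 without 1 library, and exons lower (0) became 1 with DESeq2 or non-overlapping windows (IDH3A exon 16). Total counts gave 5141 of all 58684 exons tested as higher. Enriched windows over SMI (0) became 1 with at least 5 counts (IDH3B exon 2, which passed that filter only through MDH2 IP). They became 2 with total counts (IDH3B exon 8), where 9736 of all 51108 windows tested were enriched. The causes were not tested.

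Same-numbered libraries had deviations correlated at 0.08 to 0.50 between MDH2 IP and SMI and at -0.01 to 0.26 with IgG IP. In each pairing of groups 2 of 3 pairs passed 0.1. The input was taken from the lysates that went into the IP, but the labels do not say that equal numbers mark the same lysate. The reported fits had no block, and the calls of IDH3A and OGDH over SMI depend on that choice. Every MDH2 IP library correlated best with its own number in SMI. With a replicate block 2 members were higher over SMI (IDH3B and OGDH, adjusted p = 0.00734) and 1 lower (IDH3A, adjusted p = 0.00344), 2 were lower in IgG IP than in SMI (CS, adjusted p = 0.0391, and IDH3A, 0.0347), 2 exons were higher (IDH3B exon 2 and IDH3G exon 1) and 2 lower (CS exon 13 and IDH3A exon 16). Over all 13923 genes tested the block raised the genes higher over SMI from 1198 to 2940 and those lower from 1496 to 2875. Of 12788 genes tested, those lower in IgG IP than in SMI went from 765 to 1252. Of 58684 exons tested, those higher over SMI went from 1563 to 4023 and those lower from 3239 to 5378.

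Signs turned only in comparisons where the member had no call in the reported fit. Over SMI these were OGDH with introns (-0.15), DLST with non-overlapping windows (-0.0051) and SUCLG1 with DESeq2 (0.0075), DESeq2 size factors (0.0063), all 9 libraries (0.032), no filter (0.013), non-overlapping windows (0.055) and total counts (0.16). Over IgG IP these were DLST with introns (0.31), no filter (0.079), non-overlapping windows (0.021) and total counts (0.0091), and SUCLG2 with introns (-0.62). For IgG IP over SMI, introns gave -0.094 for IDH3B, -0.22 for OGDH, -0.060 for DLST and -0.31 for FH, and no filter gave -0.099 for IDH3B, -0.029 for DLST and -0.050 for FH. Leaving out 1 library also turned signs, with ranges over SMI of -0.034 to 0.12 for DLST and -0.13 to 0.074 for SUCLG1, over IgG IP of -0.22 to 0.19 for IDH3G, -0.17 to 0.74 for OGDH and -0.12 to 0.048 for DLST, and for IgG IP over SMI of -0.057 to 0.091 for IDH3B, -0.33 to 0.58 for OGDH and -0.17 to 0.23 for FH. Differences of exonic share moved by less than the larger of both groups' SDs in all 63 alternatives, and those of last exon share in 62 of 63. The share alternatives without 1 library and those of the IDH3B to IDH3A ratio were added after seeing the data.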
